A study of Homo sapiens with 2 samples.

Results

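The kinesin genes encode motor proteins that use ATP to move along microtubules or to take microtubules apart at their ends. They were taken as the protein-coding genes whose symbol is KIF followed by a number, or KIFC followed by a digit, which gave 42 of 50893 named genes in a table of transcript levels from WI-38 cells. WI-38 is an established diploid cell line of human lung fibroblasts with a limited life span in culture, grown here in DMEM. The groups were young, proliferating cells at population doubling level 20 and cells in replicative senescence at level 52, neither with any other treatment or genetic change named. Each group held 1 library of total RNA, so there is no spread between cultures and no test, and each difference below is one between 2 libraries. In bulk RNA, fewer cells that express a gene and less RNA of that gene per cell cannot be told apart.

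Kinesins fall into working groups. Mitotic kinesins build the spindle, hold and move chromosomes on it and finish cytokinesis, and most are made in the G2 and M phases of the cell cycle. Transport kinesins carry vesicles, organelles, messenger RNA and, inside cilia, particles of the cilium itself along microtubules, and they are needed whether or not a cell divides.

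A gene's level is the sum of the FPKM (mapped fragments, corrected for transcript length and library size) of its isoforms. In each pair of values the first is from the young library. The log2 ratio is that of senescent over young after 1 FPKM was added to both, which makes ratios of low genes look smaller than they are. Measured genes are those that reached 1 FPKM in either library, and they were called lower or higher at 2-fold or more on that scale. Depth is not given in the table. From the steps of low values it was estimated at 15900000 fragments for young and 14800000 for senescent cells, and the numbers of fragments given for single genes are estimates from these depths.

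In sum, markers of fibroblasts stood far above those of other cell types. All 11 fibroblast markers were measured, with sums of 10691 and 5880 FPKM. Of these, 5 were past 2-fold in the lower direction, as were 8.58% of all measured genes. Of 7 epithelial, 6 endothelial and 8 blood cell markers found in the table, 3, 2 and 3 were measured, with sums of 16.8 and 9.90, 21.1 and 9.93, and 69.4 and 63.6 FPKM. The epithelial KRT5 and KRT14, the endothelial CDH5 and the T cell gene CD3E were listed at 0 in both libraries. The highest of the others were CD163, a macrophage gene, at 53.9 and 40.3 FPKM, CD68 at 14.3 and 21.1 FPKM, the endothelial TEK at 18.8 and 8.16 FPKM and the epithelial KRT19 at 11.5 and 1.37 FPKM. The epithelial KRT18 was at 2.84 and 6.75 FPKM. The fibroblast marker S100A4, at 23.5 and 21.8 FPKM, stood under CD163 in both libraries. Whether other cells took part in any result was not tested. MKI67, the gene of a proliferation antigen, stood at 34.7 and 1.33 FPKM, and CDKN1A, the gene of the cell cycle inhibitor p21, at 306 and 862 FPKM.

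The kinesin genes were divided by role. Of 14 mitotic kinesin genes 13 were measured, and 12 of these were lower by 2-fold or more in senescent cells, with a median log2 ratio of -1.78. Of 28 other kinesin genes 16 were measured, with 0 past 2-fold in either direction and a median of 0.21. Across all 18265 measured genes, 8.58% were called lower and 6.73% higher, with a median of -0.10, and over protein-coding genes alone the shares were 8.62% and 6.49%. The mitotic KIF11, KIF15, KIF4A, KIF4B, KIF18B, KIF2C and KIF14 and the non-mitotic KIF24 reached 1 FPKM in the young library alone, which favours a lower ratio. With no minimum, 12 of 14 mitotic kinesins were lower, against 4.70% of all named genes above 0 in a library. All 13 measured mitotic kinesins had ratios under 0. Of the 16 others 12 had ratios above 0, as did 43.4% of all measured genes, while 56.6% of all measured genes had ratios under 0. With complete-match transcripts only, or with isoforms weighted by length, 10 of 15 others had ratios above 0. The highest ratio of a mitotic kinesin was that of KIF4B at -0.86, and 11.0% of measured genes had a lower one. The lowest ratio of another kinesin was that of KIF24 at -0.80, close to the edge of the mitotic group. In plain terms KIF24 was 4.36-fold lower, more than the mitotic KIF23 at 3.74-fold and also more than KIF18A, KIF20B and KIF22, so the groups overlap by that measure. With a pseudocount of 5 FPKM in place of 1, 7 mitotic kinesins were lower, against 2.76% of all measured genes, and the mitotic median was -1.01. KIF14, KIF20B, KIF22, KIF2C and KIFC1 stood within 2-fold on that scale. The groups then overlapped, with KIF2A at -0.52 under KIF14 at -0.47 and KIF4B at -0.24. KIF2A, which also works at spindle poles, is counted among the others because it serves non-dividing cells as well. Counted as mitotic, it would make 12 of 14 measured mitotic kinesins lower, with a median of -1.76, and would put the edge of that group at -0.56, above KIF24.

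**Figure D1:**
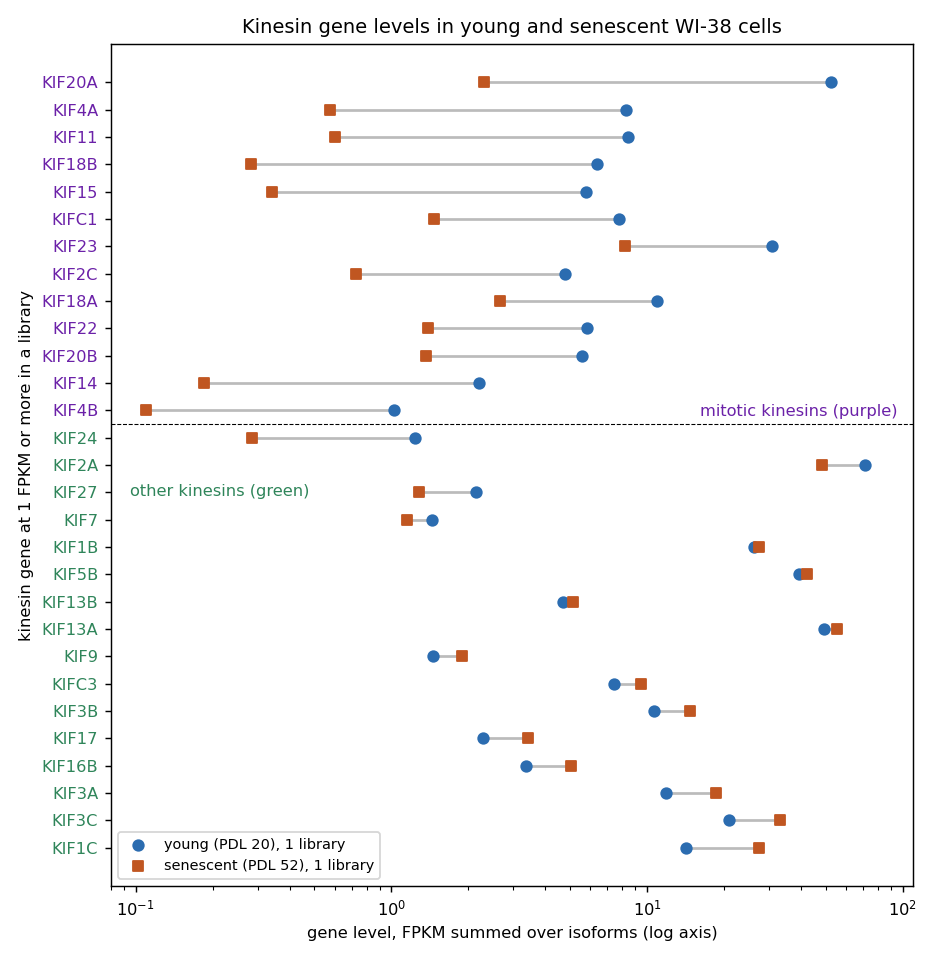
Level of each of the 29 measured kinesin genes in the young (blue circle) and the senescent (orange square) library, in FPKM on a log axis, with mitotic kinesins above the dashed line. The senescent value lies to the left of the young value for all 13 mitotic kinesins, and to the right of it for 12 of the 16 others.

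**Figure D2:**
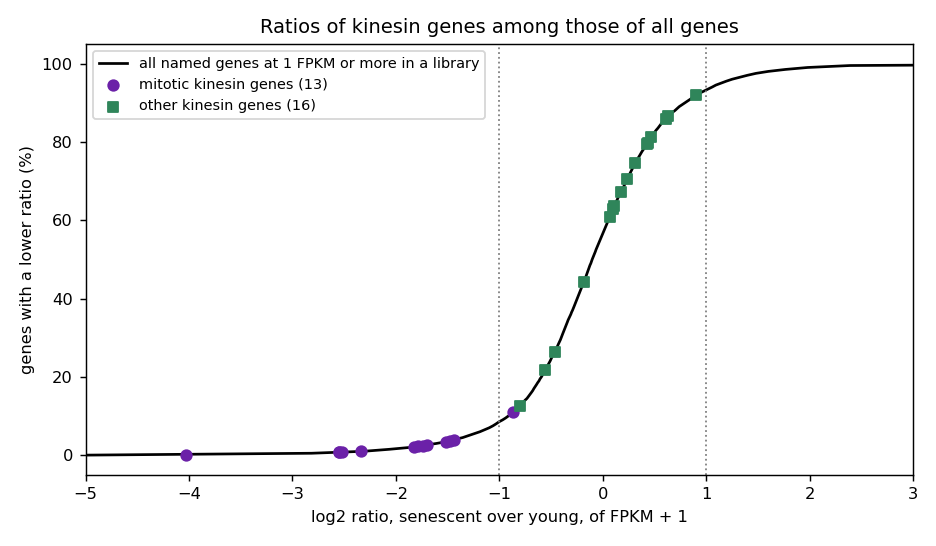
Log2 ratio of senescent over young (FPKM + 1) against the share of measured genes with a lower ratio, with all 18265 measured genes as a line and kinesin genes as points. Dotted lines mark 2-fold. The mitotic kinesins sit in the lower tail, with KIF20A at -4.02, and the other kinesins lie between -0.80 and 0.90.

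The makeup of kinesin messengers differed between the libraries. Over all 42 genes the summed level was 421 and 318 FPKM. Mitotic kinesins made up 35.7% and 6.37% of it, with sums of 150.3 and 20.3 FPKM. The sum of the others was 271 and 298 FPKM. In the young library the order of levels began with KIF2A, KIF20A, KIF13A, KIF5B and KIF23. In the senescent library it began with KIF13A, KIF2A, KIF5B, KIF3C and KIF1C, with KIF23 as the highest mitotic kinesin at rank 10 and KIF20A at rank 15. These shares and ranks are those of summed FPKM, in which short isoforms weigh heavily. Without replicates, the spread behind the ranks is not known.

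**Figure D3:**
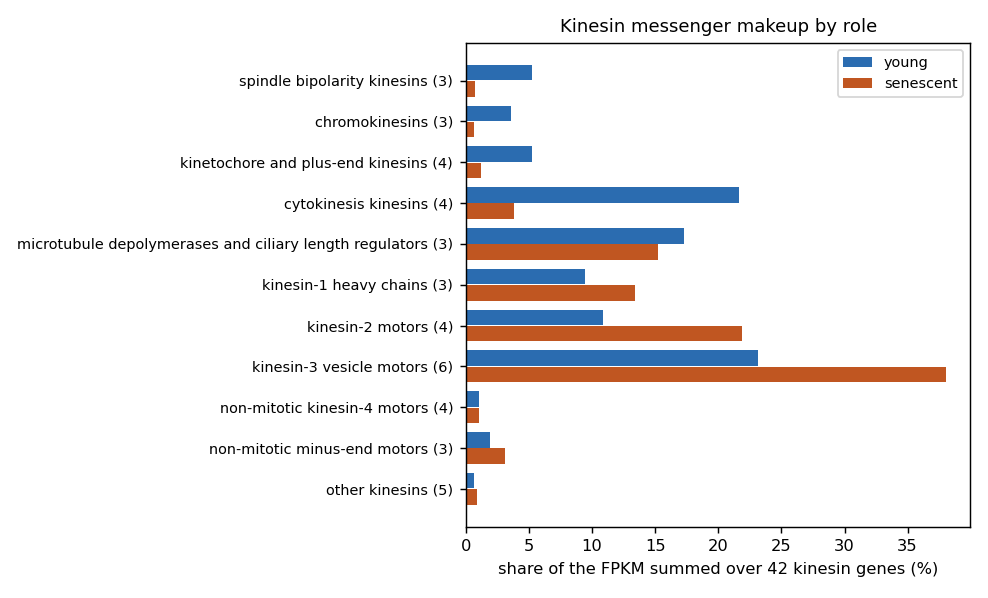
Share of the FPKM summed over the 42 kinesin genes held by each role group in the young (blue) and senescent (orange) library, in percent, with the number of genes in parentheses. Cytokinesis kinesins held 21.6% and 3.79%, while kinesin-3 vesicle motors held 23.2% and 38.1%.

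The promoters of the kinesin genes were read for a pair of known cell cycle elements, since the mitotic members were lower together. The CHR (cell cycle genes homology region) is a short element near the start of many G2 and M phase genes, where the DREAM complex and the MuvB core with B-MYB bind. It often lies downstream of CCAAT boxes, which bind NF-Y. RefSeq promoter windows of 300 bases on GRCh38.p14, from 250 bases before the gene start, matched 34 of the 42 genes, and 8 other kinesins had no window. Searched on both strands, the CHR letters TTTGAA or TTCGAA were found for 11 of 14 mitotic kinesin genes and 2 of 20 others, against 19.5% of the 27305 genes with a window. CCAAT was found for 11 of 14 and 7 of 20, against 39.7%. The pair together was found for 10 of 14 and 2 of 20, against 7.85%. Some genes have several windows and so more room for a match. Over single windows the CHR letters were in 16.4% of 35116. Such a match is a description of letters and no evidence that a factor binds there.

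The windows below run from 80 bases before the start to 20 from it, on the strand of the gene, and are shown because they hold the elements that mitotic kinesins share. Capitals mark the CHR letters (TTTGAA, its reverse TTCAAA, or TTCGAA) and the CCAAT box (CCAAT, or its reverse ATTGG).
KIF11 (chr10:92593050-92593149, + strand): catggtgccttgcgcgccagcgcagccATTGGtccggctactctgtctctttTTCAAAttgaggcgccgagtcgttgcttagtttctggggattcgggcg
KIF4A (chrX:70290024-70290123, + strand): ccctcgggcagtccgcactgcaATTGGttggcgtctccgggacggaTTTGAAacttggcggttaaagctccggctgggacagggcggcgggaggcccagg
KIF18A (chr11:28108137-28108236, - strand): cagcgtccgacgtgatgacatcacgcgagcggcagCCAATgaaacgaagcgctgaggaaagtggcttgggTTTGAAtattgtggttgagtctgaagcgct
KIF22 (chr16:29790671-29790770, + strand): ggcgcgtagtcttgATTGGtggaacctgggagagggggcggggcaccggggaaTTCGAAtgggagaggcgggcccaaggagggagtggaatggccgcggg
KIF18B (chr17:44947754-44947853, - strand): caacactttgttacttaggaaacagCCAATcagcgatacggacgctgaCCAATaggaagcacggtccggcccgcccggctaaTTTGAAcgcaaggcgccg
KIFC1 (chr6:33391743-33391842, + strand): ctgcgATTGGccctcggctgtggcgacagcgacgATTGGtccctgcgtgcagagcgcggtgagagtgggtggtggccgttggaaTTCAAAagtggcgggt
KIF23 (chr15:69414269-69414368, + strand): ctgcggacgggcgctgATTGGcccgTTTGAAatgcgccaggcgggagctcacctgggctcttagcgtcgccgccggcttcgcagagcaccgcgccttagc
KIF15 (chr3:44761714-44761813, + strand): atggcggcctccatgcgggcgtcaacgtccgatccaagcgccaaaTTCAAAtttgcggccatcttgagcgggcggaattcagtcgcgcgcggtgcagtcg
In KIF11, KIF4A, KIF18A and KIF22 a CCAAT box was followed by CHR letters 25, 24, 35 and 39 bases further on, just ahead of the start. KIF18B and KIFC1 have a pair of boxes and CHR letters at the start itself. In KIF23 the elements lie closer, 9 bases apart, in KIF20B they lie 122 and 128 bases apart, and KIF15 holds CHR letters without a box in its window.

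The mitotic kinesins without these letters in their windows were KIF20A, KIF2C and KIF2B. KIF20A and KIF2C, which were both past 2-fold in the lower direction, are shown next, with 2 transport kinesins for contrast.
KIF20A (chr5:138179032-138179131, + strand): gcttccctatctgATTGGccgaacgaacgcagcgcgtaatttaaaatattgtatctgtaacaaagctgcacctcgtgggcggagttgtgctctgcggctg
KIF2C (chr1:44739757-44739856, + strand): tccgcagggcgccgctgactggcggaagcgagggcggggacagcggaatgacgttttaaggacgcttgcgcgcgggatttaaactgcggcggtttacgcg
KIF5B (chr10:32056406-32056505, - strand): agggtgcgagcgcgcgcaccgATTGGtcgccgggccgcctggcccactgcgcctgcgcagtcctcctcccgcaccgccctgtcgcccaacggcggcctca
KIF1C (chr17:4997870-4997969, + strand): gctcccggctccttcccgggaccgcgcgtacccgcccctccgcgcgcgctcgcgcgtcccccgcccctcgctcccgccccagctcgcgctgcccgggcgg
KIF20A has CCAAT boxes but no CHR letters. KIF20A and KIF2C hold the related letters TTTAAA, left in lower case here, 41 and 3 bases before the start. That variant was chosen after the values were seen. With it counted as well, 13 of 14 mitotic and 3 of 20 other kinesins had a match, against 29.0% of all genes. KIF5B has a CCAAT box 59 bases before the start and CHR letters 140 bases before it, outside the stretch shown, and its level was close in both libraries. KIF1C has none of these letters in its window. The other non-mitotic kinesin with CHR letters was KIF24, with letters 1 base from the start and a CCAAT box 47 bases before it. KIF24 had the lowest ratio of the non-mitotic kinesins, from about 113 and 25 fragments. Whether promoter letters bear on the level of any kinesin was not tested.

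**Figure D4:**
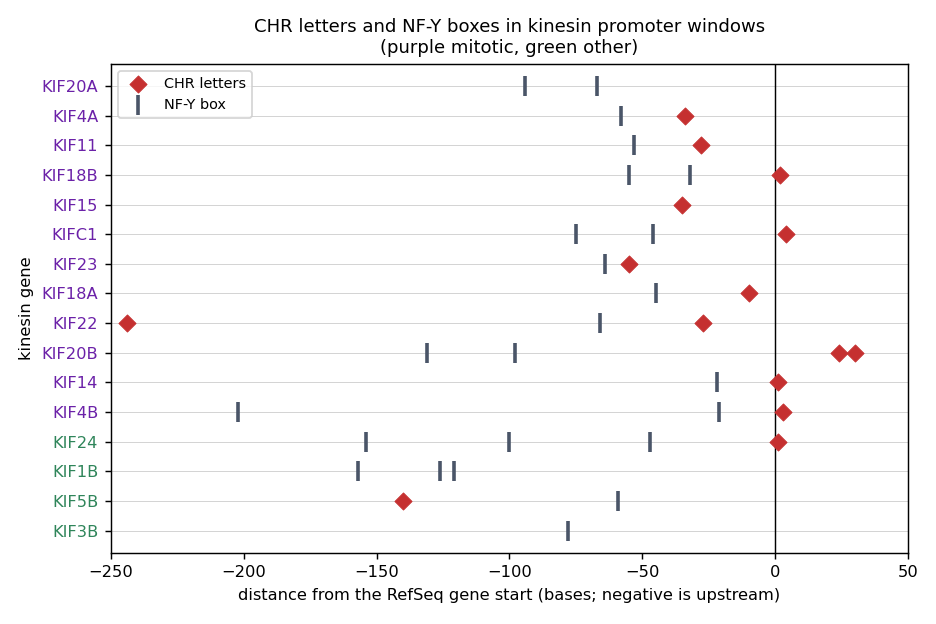
Distance in bases from the RefSeq gene start to each CHR match (red diamond) and CCAAT box (grey bar, marked NF-Y), for measured kinesin genes with at least 1 match, ordered by log2 ratio from the lowest within mitotic (purple) and other (green) kinesins. KIF1B and KIF22 pool several windows. Of the 11 mitotic kinesins with CHR matches, the one nearest the start lies within 55 bases of it.

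The kinesins that push spindle poles apart or focus them were low in senescent cells. KIF11 (hg19 chromosome 10, 94353043 to 94415150), the motor also called Eg5 that slides antiparallel microtubules apart, was at 8.40 and 0.604 FPKM, or 13.9-fold lower, from about 622 and 42 fragments. It has a single isoform in the table, KIF11-001 of 4858 bases, so its value is not a sum over isoforms. Transcripts assembled opposite to its exons, given below, may still have shared fragments with it. KIF15, which backs up KIF11 in keeping the spindle bipolar, was at 5.76 and 0.341 FPKM. KIFC1, a minus-end motor that bundles microtubules at the poles, was at 7.76 and 1.46 FPKM, with 51.6% of its young level from a 734-base isoform. All 3 were past 2-fold, with log2 ratios of -2.55, -2.33 and -1.83.

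Chromokinesins, which bind chromosome arms and push them towards the middle of the spindle, were lower too. KIF4A (chromosome X, 69509879 to 69640682), which also works at the central spindle, was at 8.25 and 0.575 FPKM, log2 ratio -2.55. KIF22, also called Kid, was at 5.85 and 1.39 FPKM, log2 ratio -1.52. KIF4B is an intronless copy of KIF4A on chromosome 5, and reads of near-identical copies may be shared between them, so its value is uncertain. It was at 1.02 and 0.110 FPKM, a plain 9.31-fold difference from about 68 and 7 fragments that is within 2-fold on the scale used here and past it, at -2.42, with a pseudocount of 0.1 FPKM.

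Kinesins of kinetochores and microtubule plus ends showed the same direction. KIF18B, which limits astral microtubule length, was at 6.39 and 0.283 FPKM, or 22.6-fold lower. KIF18A, which damps chromosome movements at the metaphase plate, was at 10.9 and 2.67 FPKM, log2 ratio -1.70. KIF2C, also called MCAK, which takes microtubules apart at centromeres to correct wrong attachments, was at 4.77 and 0.727 FPKM, log2 ratio -1.74, from about 152 and 9 fragments. Its main isoform KIF2C-001 was at 2.98 FPKM in young cells but listed at 0 in senescent cells. KIF2B was listed at 0 and at 0.0246 FPKM and was not measured. KIF18B also had an assembled transcript past its annotated end, at 6.88 and 1.48 FPKM.

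The cytokinesis kinesins held the most abundant mitotic members. KIF20A (chromosome 5, 137514408 to 137523404), also called MKLP2, carries the chromosomal passenger complex to the central spindle. It was at 52.7 and 2.30 FPKM, or 22.9-fold lower, the lowest ratio of any kinesin, and 0.0547% of measured genes had a lower one. KIF23 (chromosome 15, 69706585 to 69740764), which forms centralspindlin with RACGAP1, was at 30.7 and 8.22 FPKM, or 3.74-fold lower, and kept the highest level of any mitotic kinesin in senescent cells. KIF20B, a kinesin of late cytokinesis, was at 5.56 and 1.36 FPKM, log2 ratio -1.47. KIF14, which recruits citron kinase to the midbody, was at 2.20 and 0.185 FPKM, log2 ratio -1.43.

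The level of KIF20A came from several isoforms. A 600-base transcript of the nonsense-mediated decay type, KIF20A-007, made up 43.6% of the gene's FPKM in the young library, at 22.97 and 0.365 FPKM. The 2935-base protein-coding isoform KIF20A-002 was at 19.2 and 1.19 FPKM, or 16.2-fold lower, and the 810-base KIF20A-005 at 5.87 and 0.565 FPKM. All 5 measured isoforms of KIF20A were at least 2-fold lower. A short transcript needs few fragments for a high FPKM, so the sum weighs it heavily.

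KIF20B was the one mitotic kinesin with isoforms past 2-fold in both directions. Its assembled isoforms of 5228 and 5201 bases were at 3.12 and 1.56 FPKM in young cells but listed at 0 in senescent cells. An assembled isoform of 3942 bases was at 0.000202 and 1.12 FPKM and held 82.1% of the gene's level in senescent cells. In the authors' deposited table the last of these is not called, with a q-value of 0.979. The 3 KIF23 isoforms were all lower, by 3.90-fold, 4.57-fold and 2.47-fold, the last within 2-fold on the pseudocount scale.

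**Figure D5:**
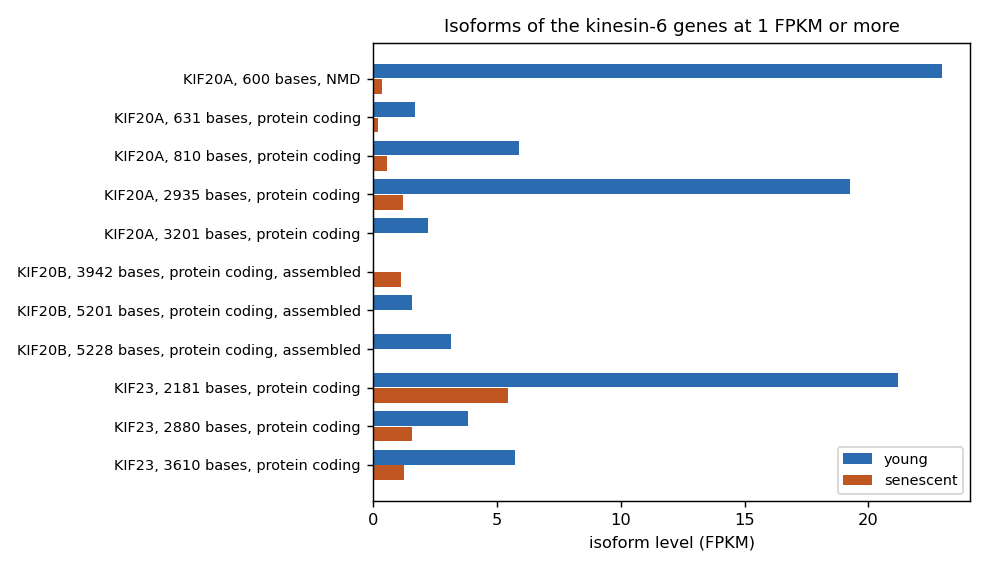
Level in FPKM of each measured isoform of KIF20A, KIF20B and KIF23 in the young (blue) and senescent (orange) library, labelled by length, transcript type and whether it was assembled from reads. KIF20A and KIF23 isoforms are lower throughout, while 1 KIF20B isoform stands at 0.000202 and 1.12 FPKM.

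At the level of isoforms, 22 of 26 measured transcripts of mitotic kinesin genes were at least 2-fold lower and 1 was higher. Of the 26, only KIF18A-001, KIF20A-002, KIF22-001, KIFC1-002 and the KIF23 isoforms reached 1 FPKM in both libraries. The 1 higher isoform passed that minimum through the senescent library alone. The rest passed it through the young library alone, which favours a lower ratio. For other kinesins 5 of 51 were lower and 6 higher. Among all measured isoforms of protein-coding genes 13.7% were lower and 12.2% higher. The authors' deposited table calls 15 of 35 tested isoforms of mitotic kinesins significant, all lower, in 11 genes, against 2.33% of tested isoforms of protein-coding genes called lower and 1.89% called higher. These calls compare 2 libraries, not conditions. The smallest q-values there were 2.49501e-06 for KIF4A-001, 3.17198e-06 for KIF20A-002 and 5.56713e-06 for KIF20A-007. KIF14 and KIF22 had no called isoform in that table. For KIF14-001, at 1.82 and 6.56196e-05 FPKM, the authors' deposited table gives a q-value of 0.985.

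Transcripts assembled inside introns give a second readout at the same genes that the levels above do not use. They were found for 5 mitotic kinesin genes, KIF11, KIF18A, KIF23, KIF4A and KIFC1, and of 15 such transcripts 14 were lower in senescent cells and 1 was listed at 0 in both libraries, in sum at 16.8 and 2.90 FPKM. All 5 genes were at least 2-fold lower by this sum, against 29.1% of 4898 genes with such transcripts at 1 FPKM or more in sum. Of the 5, only KIF4A reached 1 FPKM in both libraries, at 4.57 and 1.06 FPKM. KIF11, KIF18A, KIF23 and KIFC1 passed that minimum through the young library alone, which favours a lower ratio. The KIF18A sum came from a 292-base transcript, at 1.99809 FPKM and listed at 0. Numbers of fragments were not estimated for intronic transcripts, and short ones at such levels rest on few fragments. The count of genes is thus a description and no independent support for the levels above. For 7 other kinesins the sums were 51.5 and 45.6 FPKM, and 0 of the 7 were past 2-fold. Intronic transcripts were lower in the senescent library across genes, at any size in 83.3%, with a median log2 ratio of -0.67, so direction alone sets none of them apart. Opposite to KIF11 exons, a 150-base transcript was at 4.42 FPKM and listed at 0, and a 778-base one at 0.275 and 1.25 FPKM. The strand of the reads is not stated, so these cannot be told apart from KIF11 itself.

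Some kinesin genes overlap other measured genes, 9 of the 29 in all. KIF20A lies over BRD8 at 67.2 and 42.2 FPKM and CDC23 at 19.99 and 13.2 FPKM on the opposite strand. KIF4A lies over PDZD11 at 75.8 and 83.4 FPKM, and KIF15 over TMEM42 at 3.85 and 4.61 FPKM. None of these 4 neighbours was past 2-fold. C15orf42, opposite to KIF7, was at 2.67 and 0.197 FPKM. KIFC1 lies over RPL12P1 at 22.1 and 15.1 FPKM. KIF2A lies over IPO11, on the same strand, at 22.4 and 17.3 FPKM and over DIMT1L at 9.73 and 7.30 FPKM. KIF24 lies over UBAP1 at 14.6 and 16.0 FPKM and RP11-571F15.6 at 2.74 and 1.31 FPKM. KIF9 and KIF13A overlap measured genes as well. Whether overlaps bear on the level of any kinesin was not tested.

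Among the non-mitotic kinesins, both measured members of the group that trims microtubules or acts at the base of cilia had ratios under 0, within 2-fold on the pseudocount scale. KIF2A (chromosome 5, 61601989 to 61833076) is a microtubule depolymerase of spindle poles and of growing cell processes. It had the highest summed FPKM of any kinesin in the young library, at 71.4 and 48.2 FPKM, log2 ratio -0.56. By estimated fragments, about 1183 and 721, it stood under KIF5B at about 3558 and 3555, and under KIF1B and KIF13A in both libraries. In the senescent library it also stood under KIF1C, KIF3B and KIF3C by fragments. Its level was spread over 10 isoforms, led by the 874-base KIF2A-006 at 20.3 and 11.7 FPKM. The 3360-base KIF2A-001 was at 8.97 and 5.74 FPKM, so short isoforms weigh heavily in the sum. Of its minor isoforms, the 2315-base KIF2A-002 was at 1.69 FPKM and listed at 0, and the 759-base KIF2A-010 was listed at 0 and at 1.17 FPKM. KIF24, which holds back cilium formation at the mother centriole, was at 1.24 and 0.284 FPKM, a plain 4.36-fold difference from about 113 and 25 fragments, and at -1.80 with a pseudocount of 0.1 FPKM. KIF19 was listed at 0 in both libraries.

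The heavy chains of conventional kinesin differed little. KIF5B (chromosome 10, 32297938 to 32345359), the ubiquitous heavy chain, was at 39.4 and 42.4 FPKM, log2 ratio 0.10, from about 3558 and 3555 fragments, and 98.3% or more of it came from the 5877-base KIF5B-001. A further 2301-base transcript listed under the symbol KIF5B, but with no Ensembl gene or biotype, was left out by the rule that chose the members. It was at 18.9 and 15.2 FPKM. With it, KIF5B would stand at 58.3 and 57.6 FPKM, with a log2 ratio of -0.02 in place of 0.10 and the highest level of any kinesin in senescent cells, and 11 of the 16 other kinesins would have ratios above 0. The neuronal heavy chains KIF5A and KIF5C were at 0.192 and 0.203 and at 0.196 and 0.136 FPKM.

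Motors of the heterotrimeric and homodimeric kinesins of intraflagellar transport had ratios above 0. KIF3A, which pairs with KIF3B or KIF3C, and these partners were at 11.8 and 18.5, 10.7 and 14.7, and 20.9 and 33.0 FPKM. KIF17, a homodimeric partner in cilia and dendrites, was at 2.29 and 3.43 FPKM. Their log2 ratios lay between 0.42 and 0.63, and none reached 2-fold. The direction of KIF3B turned, to -0.59, when only complete-match transcripts were summed. KIF3C transcripts carry the status FAIL in the authors' deposited table, and 50.3% of its young level came from a 730-base retained-intron transcript. In KIF3B the annotated 6103-base isoform was at 5.11 and 3.05 FPKM and an assembled 5925-base isoform at 4.56 and 10.8 FPKM, log2 ratio 1.09. A further 752-base transcript over KIF3B exons was at 0.0291 and 3.43 FPKM.

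The vesicle motors of the kinesin-3 family had ratios between 0.07 and 0.90. KIF1C (chromosome 17, 4901243 to 4931696), which moves integrins and dense vesicles, had the highest ratio of any kinesin at 14.3 and 27.5 FPKM, or 1.93-fold higher, log2 ratio 0.90. Both of its isoforms were higher, the 7919-base KIF1C-001 at 5.19 and 9.69 FPKM and an assembled 2044-base one at 9.08 and 17.8 FPKM. It passed 2-fold, at 1.05, only when the libraries were scaled by their upper quartiles. KIF13A, a motor of endosomes and melanosomes, had the highest summed FPKM of any kinesin in senescent cells, at 49.1 and 55.6 FPKM. An 810-base isoform made up 45.1% of its senescent level. By estimated fragments KIF13A, at about 1725 and 1830, stood under KIF5B and under KIF1B at about 2254 and 2002. KIF1B, which moves mitochondria and vesicles, was at 26.2 and 27.5 FPKM, and its ratio turned to -0.21 with its highest isoform alone. KIF13B was at 4.69 and 5.15 FPKM. KIF16B, a motor of early endosomes, was at 3.37 and 5.06 FPKM. One isoform of this family is called in the authors' deposited table, the 5885-base KIF1B-004 at 1.88 FPKM and listed at 0, with a q-value of 0.0744. It is the only called isoform among 78 tested of non-mitotic kinesins. Such calls are few in general, with 2.33% of tested isoforms of protein-coding genes called lower and 1.89% called higher. The neuronal KIF1A was listed at 0 and at 0.366 FPKM.

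The remaining measured kinesins were low, apart from KIFC3, a minus-end motor of cell junctions, at 7.43 and 9.48 FPKM, whose log2 ratio of 0.31 turned to -0.09 with complete-match transcripts only. KIF7, a regulator of Hedgehog signalling at the cilium tip, was at 1.44 and 1.15 FPKM, and its relative KIF27 at 2.14 and 1.28 FPKM. KIF9 was at 1.45 and 1.89 FPKM. The 13 kinesins under 1 FPKM in both libraries were KIF1A, KIF2B, KIF5A, KIF5C, KIF6, KIF12, KIF19, KIF21A, KIF21B, KIF25, KIF26A, KIF26B and KIFC2. The highest of them was KIF21A at 0.664 and 0.612 FPKM, and KIF12, KIF19 and KIF26A were listed at 0 in both libraries.

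Genes that work with kinesins were grouped in the same way. Among kinesins and subunits under other symbols, CENPE, the kinetochore kinesin that carries chromosomes to the metaphase plate, was at 7.34 and 0.680 FPKM, or 10.8-fold lower. It was the only 1 of 6 measured to be called. Over all measured genes 8.58% were called lower and 6.73% higher, so the count does not set this list apart. KLC2, a light chain that links conventional kinesin to cargo, was at 3.55 and 7.91 FPKM, log2 ratio 0.97, and KIFAP3, the subunit that completes the heterotrimeric motor, at 25.3 and 24.8 FPKM.

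Partners of mitotic kinesins were lower in 14 of 17 measured cases and higher in 0, with a median of -2.51. Over all measured genes 8.58% were called lower and 6.73% higher. NUSAP1, BUB1B, HMMR, BIRC5, AURKB and CDCA8 reached 1 FPKM in the young library alone, which favours a lower ratio. ANLN, the scaffold of the contractile ring, was at 139.9 and 12.2 FPKM, and NUSAP1, which bundles microtubules near chromosomes, at 13.6 and 0.607 FPKM. NUMA1, which anchors dynein at spindle poles, was within 2-fold at 57.9 and 31.4 FPKM, as were ECT2 and INCENP. ECT2 and INCENP are named here after their values were seen.

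Subunits of cytoplasmic dynein, the motor that runs in the opposite direction to most kinesins, had a median log2 ratio of 0.55. Of 11 measured, 1 was higher and 0 lower, a share near the 6.73% of all measured genes called higher. DYNLT3, a light chain, was at 30.3 and 105 FPKM, DYNLRB1 at 59.8 and 104 FPKM and DYNLL1 at 174 and 255 FPKM. Of 17 dynactin subunits and dynein regulators, 1 was lower and 0 higher, with a median of 0.27, and the share called lower is near the 8.58% over all measured genes. The one was NDE1, a dynein regulator with a part in mitosis, at 15.9 and 5.72 FPKM. DCTN1, the large dynactin subunit, was at 121 and 209 FPKM and RILP at 2.25 and 0.770 FPKM.

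Intraflagellar transport genes, whose proteins form the particles that kinesin moves in cilia, were all 17 within 2-fold, with a median of -0.42. Over all measured genes 15467 of 18265 were within 2-fold, so the count does not set this list apart. TTC21B was at 8.07 and 3.61 FPKM, WDR35 at 5.67 and 2.61 FPKM and IFT57 at 35.3 and 32.4 FPKM. Of these 17 genes 14 had ratios under 0, as did 56.6% of all measured genes.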

How the data were processed

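Libraries were made from total RNA of WI-38 cells with a NuGEN Ovation kit, per the labels' protocols. The submitters' processing notes name hg19, Cuffdiff, Cufflinks 2.0.2 and TopHat2 2.0.6, with no roles. Neither the annotation nor whether reads keep their strand is given in the sources used here. The authors deposited 1 table of 202463 transcripts, each with 2 FPKM values headed young and old, per the file headers. The second column was taken as the senescent sample. The authors' p-values and q-values per transcript are deposited there too, and their fold, a ratio of old over young, was only checked against the FPKM columns. Transcript lengths in bases come from the deposited table.

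A gene's value was the FPKM sum over transcripts classed complete_match, potentially_novel_isoform or contained, computed per symbol and Ensembl ID (rows without an ID apart) with Python 3.11.15 and pandas 2.3.3. A pseudocount of 1 FPKM, a minimum of 1 FPKM and 2-fold were used as rules of size, with no test, since each group has 1 library. The members, role lists, lists of partner genes and marker lists were chosen with earlier results of these data known. The role of each kinesin follows textbook knowledge. Named were all measured kinesins and, from each partner list, the 2 measured genes of largest absolute ratio and the most abundant other one. A list of cargo adaptors is not reported here. Partner genes were matched by symbol or older symbol. Depth was estimated from single-transcript loci between genes, where values step by whole fragments once 200 bases are taken off the length. At the best depth 84.1% of 2579 young and 86.6% of 3258 senescent low values came out whole within 0.05. Fragments of annotated genes were not recovered, so no count test was run. Promoters come from RefSeq on GRCh38.p14 and were matched by symbol. No coordinates were moved between builds. A planned look at the motor's place in each protein was not done, since protein sequences were not used here. Alternatives covered the pseudocount, the minimum, the scaling and the transcripts summed.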

Additional observations from a re-analysis of the deposited data

How the results depend on the processing

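No paired analysis was possible because each group has 1 library. Under 9 alternative settings and 3 more chosen after seeing the data (a length-weighted sum over isoforms, rows without an Ensembl ID summed in, and KIF2A counted as mitotic), no ratio of a kinesin gene past 2-fold changed sign. Among those within 2-fold, 5 ratios of 4 genes did: KIF3B went to -0.59 and KIFC3 to -0.09 with complete-match transcripts only, KIF1B to -0.21 with the highest isoform and -0.06 with length weights, and KIF5B to -0.02 with rows without an ID. Ratios of single genes kept their side of 2-fold in 295 cases, newly passed it in 4 and no longer did in 5. With a pseudocount of 5 FPKM, 7 kinesin genes were lower, all mitotic, against 2.76% of all measured genes at that setting. The mitotic median was -1.01. KIF14, KIF20B, KIF22, KIF2C and KIFC1 were then within 2-fold. With a pseudocount of 0.1 FPKM the mitotic median was -2.56. At that setting 13 mitotic kinesins and 1 other, KIF24, were lower, against 13.9% of all measured genes. Upper-quartile scaling, a shift of 0.15 on the log2 scale, gave 1 kinesin gene higher, the non-mitotic KIF1C, against 8.79% of all measured genes. The highest single isoform as the gene's value gave 1 higher, the non-mitotic KIF3B, against 8.04%. Mitotic and other kinesins overlapped in 3 settings: a pseudocount of 5 FPKM, KIF2A counted as mitotic, and no minimum, where KIF2B stood at 0.04. A minimum of 5 FPKM left 10 mitotic kinesins. Complete-match transcripts alone left 11 and dropped KIF15 and KIF20B, whose measured isoforms were assembled ones. Low levels limit KIF15, KIF18B, KIF2C, KIF4B, KIF14 and KIFC1, with about 7 to 19 estimated fragments in the senescent library.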
